A study of Mus musculus with 8 samples.

Results

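The cholesterol synthesis genes described here are 8 genes chosen by name: Srebf2, Hmgcs1, Sqle, Idi1, Fdps, Fdft1, Lss and Insig1. Each was found by its symbol among the 55414 genes of the deposited count table, and each passed the filter on low counts that kept 10707 genes for testing. The rule that lists them uses no measured value, but the 8 genes were chosen with earlier results of these data known. The source of the RNA was sorted Paneth cells (PCs), the granule-filled secretory cells at the crypt base of the small intestine, which fluorescence-activated cell sorting isolated from C57BL/6J mice. The Milli-Q water group (4 mice) drank purified water for 7 days, and the zinc group (4 mice) drank water with 25 mM ZnSO4 over the same time. Every mouse of both groups was then given an injection of TNF (tumor necrosis factor, a cytokine of inflammation), 3 hours before its PCs were taken. By the sample records, the comparison is therefore zinc against water under TNF, and the groups hold no mouse without TNF. Levels of TNF response genes, which were far lower in zinc replicate 3, are given below. So are those of 3 zinc-induced genes, which lay inside the water range in zinc replicate 4. The sources used here give neither the ages of the mice nor the dose of TNF.

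Cells make cholesterol from acetyl-CoA through mevalonate, isoprenoid diphosphates and squalene, and the flux is set mainly by the transcription factor SREBP2, the product of Srebf2. When sterols in the endoplasmic reticulum run low, the escort protein SCAP carries SREBP2 to the Golgi, where proteases release its active part. This part switches on the genes of the enzymes and of sterol uptake, and INSIG proteins hold SCAP back when sterols are plentiful. Sterol synthesis is known to be active in the intestinal epithelium, which also takes up cholesterol from food and bile.

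The libraries held 10623658 to 15101627 counts each. Levels are given as CPM, read counts relative to library sizes that were scaled by the TMM method of edgeR. A gene without any read in a library can still be present at up to 3 counts, or 0.179 to 0.369 CPM depending on the library. The PC label was checked with 10 Paneth cell markers, which were all tested and summed to 409273 to 734351 CPM with water and 391264 to 493191 CPM with zinc. Of 12 markers of immune and stromal cells 1 passed the filter, Lyz2, which was at 13.1 to 27.4 CPM over the libraries. The other 11 were below it, and Adgre1, Col1a1 and Col3a1 had no count in any library. Zinc replicate 3 stood apart, with a Pearson correlation across genes (log2 values) of 0.83 to 0.89 with the other libraries, which correlated at 0.95 or more among themselves. In it 12 of the 13 tested genes of a TNF and NF-kB response list had their lowest level, and the 14 listed genes summed to 112 CPM against 1356 to 1462 in the other zinc libraries and 1440 to 1637 with water. It was also the highest library for 7 of 8 tested enterocyte markers, of 12 listed. All 12 summed to 502 CPM in it, 289 to 375 in the other zinc libraries and 283 to 310 with water, and the 4 below the filter (Alpi, Fabp1, Lct and Slc2a2) had 37 to 123 counts in it and 0 to 12 in every other library. Of 10 tested crypt stem and cycling cell markers, 5 were highest in it, but the sum of all 12 listed (772 CPM) lay within the range of the other zinc libraries, 254 to 857, against 258 to 449 with water. The part of these differences in the values below was not tested, and values are also given without zinc replicate 3. In bulk samples, fewer cells of a type and less RNA per cell cannot be told apart.

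Per unit of transcript length, the 8 genes spanned a wide range in PCs. Levels between genes were compared as CPM per kilobase of the canonical transcript. Srebf2 was the highest at 23.3 to 38.8 CPM per kilobase over the 8 libraries, above 92.3% of the tested genes with a length. Insig1 followed at 6.32 to 17.3 (percentile 77.0), Hmgcs1 at 5.50 to 12.7 (70.9), Fdft1 at 5.34 to 7.66 (65.2) and Sqle at 3.20 to 6.71 (58.4), all above the median of the tested genes on average, which was 3.61 CPM per kilobase. Lss at 1.36 to 2.14 CPM per kilobase (percentile 28.5), Fdps at 0.188 to 1.19 (13.2) and Idi1 at 0.161 to 1.01 (7.82) were below that median in every library. The mRNA of the regulator was thus above that of each enzyme it drives, and the enzymes differed among themselves. The steps from Srebf2 to Insig1, from Sqle to Lss and from Lss to Fdps were clear of the spread, with no overlap of ranges and the same order in 8 of 8 libraries. Neighbours in between did not differ beyond their spread. Insig1 was above Hmgcs1 in 7 libraries, Hmgcs1 above Fdft1 in 6, Fdft1 above Sqle in 6 and Fdps above Idi1 in 5. With the union of exons as the length in place of the canonical transcript, Hmgcs1 came before Insig1 and Idi1 before Fdps.

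The lowest levels carry a further limit. Of the 75-base words of the canonical transcript, 91.7% for Idi1, 44.3% for Fdft1 and 40.0% for Fdps occur also in transcripts of other genes or elsewhere in the genome. The share was 21.2% for Insig1, 16.5% for Hmgcs1, 14.5% for Sqle, 4.72% for Srebf2 and 2.00% for Lss. The sources used here do not say how reads with several matches were counted, so the levels of Idi1, Fdft1 and Fdps relative to the other genes are uncertain. The part of reads from other places in the fold changes and correlations of these genes was not tested.

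SREBP2 acts at sterol regulatory elements, usually beside sites of NF-Y and Sp1, so the promoters of the members were read for these letters. RefSeq promoter windows (GRCm38.p6, 250 bases before to 50 after the annotated start) were matched for 5 of the 8 genes: Srebf2, Hmgcs1, Idi1, Lss and Insig1. Sqle, Fdps and Fdft1 had no entry. Of 4 motifs searched on both strands, TCACNCCAC, a form of the sterol regulatory element, was in 1 of the 5 windows, that of Hmgcs1, and in 1.24% of the 32851 windows of the table. The E-box CACGTG was in the window of Insig1 alone, and in 7.15% of all windows. CCAAT, the NF-Y box, was in 5 of 5 and in 37.4% of all, and GGGCGG, the GC box, was in 5 of 5 and in 35.7% of all. No matches overlapped each other in these 5 windows. The Hmgcs1 window is shown because it holds the sterol motif, and those of Insig1 and Idi1, chosen after values were seen, because these genes had high fold changes. All 3 lie on the plus strand and are written 5′ to 3′, with coordinates of GRCm38.p6, whereas gene positions elsewhere in the text are of GRCm39. Capitals mark TCACNCCAC in Hmgcs1 (chr13:119690101-119690400, match starting at -137 from the annotated start), CACGTG in Insig1 (chr5:28071162-28071461, at -101) and CCAAT on the minus strand, read as ATTGG, in Idi1 (chr13:8885356-8885655, at -45 and -14).
Hmgcs1: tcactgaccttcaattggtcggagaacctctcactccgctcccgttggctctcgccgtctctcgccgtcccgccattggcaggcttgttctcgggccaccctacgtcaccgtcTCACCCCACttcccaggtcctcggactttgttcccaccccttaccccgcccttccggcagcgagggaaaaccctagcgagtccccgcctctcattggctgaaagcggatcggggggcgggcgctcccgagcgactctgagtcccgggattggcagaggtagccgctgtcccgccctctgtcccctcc
Insig1: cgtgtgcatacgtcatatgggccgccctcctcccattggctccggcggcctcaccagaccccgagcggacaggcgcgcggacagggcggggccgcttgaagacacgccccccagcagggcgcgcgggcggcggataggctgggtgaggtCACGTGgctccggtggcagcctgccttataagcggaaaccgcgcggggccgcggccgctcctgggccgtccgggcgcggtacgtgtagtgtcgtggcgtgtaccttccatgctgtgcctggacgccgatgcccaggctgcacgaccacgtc
Idi1: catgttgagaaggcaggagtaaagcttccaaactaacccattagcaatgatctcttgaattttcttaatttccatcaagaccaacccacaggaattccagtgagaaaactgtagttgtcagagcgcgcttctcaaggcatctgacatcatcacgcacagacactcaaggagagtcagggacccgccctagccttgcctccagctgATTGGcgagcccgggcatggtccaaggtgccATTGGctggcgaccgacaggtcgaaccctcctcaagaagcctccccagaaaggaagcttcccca
A match describes letters in a window, and binding was not measured.

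The question of the design was how zinc changes PC transcripts under TNF. Among the 8 genes, Sqle and Idi1 were higher in each of the 4 zinc libraries than in any water library, by 0.64 and 1.32 on the log2 scale. Insig1 and Hmgcs1 were higher on average, by 0.56 and 0.39, with overlap of the groups. Lss, Srebf2, Fdft1 and Fdps had log2 fold changes between -0.18 and 0.19. None of the 8 passed an adjusted p of 0.05 in edgeR (quasi-likelihood test, Benjamini-Hochberg adjustment over all genes), and the background is the same, since 0% of the 10707 genes passed. Without adjustment, 3 of the 8 (Sqle, Idi1 and Insig1, 37.5%) had a p under 0.05 with the higher value under zinc, against 6.42% of all genes. None had such a p with the lower value, against 3.78% of all genes. The 4 zinc libraries were above the 4 water libraries in 2 of the 8 (25%), against 2.76% of all genes, and below them in 0 of the 8, against 3.12%. The median log2 fold change of the 8 was 0.29, and that of all genes 0.006. Since the 8 genes were chosen with earlier results of these data known, these shares and medians are descriptions only. Markers of other cell types had the following values in the same fit. Of 10 tested crypt stem and cycling cell markers 9 had a higher fold change with zinc (median 1.04), 6 of them at an unadjusted edgeR p under 0.05. Of the tested enterocyte markers 8 of 8 were on the higher side (median 0.66), 1 of them at such a p. Goblet cell markers were split 4 and 4 (median 0.36), with 3 higher and 1 lower at such a p, and 9 of 10 Paneth cell markers were on the lower side (median -0.28), 1 at such a p. None of these passed after adjustment, and their part in the values of the 8 genes was not tested. DESeq2 and limma-voom with sample weights also called 0 of the 8, and over all genes called 4 and 0.

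Srebf2 (ENSMUSG00000022463, chromosome 15, 82031382 to 82093201, plus strand) encodes SREBP2 itself. It was at 163, 163, 130 and 146 CPM in Milli-Q water replicates 1 to 4 and at 197, 169, 118 and 160 CPM in zinc replicates 1 to 4. The groups overlapped, with both the highest and the lowest library in the zinc group. On the log2 scale zinc was 0.10 above water (SE 0.177, edgeR adjusted p 0.827), with means of 150 ± 16.0 and 161 ± 32.5 CPM (SD, n = 4 each). Without zinc replicate 3, the lowest library, it was 0.23, and without zinc replicate 1, the highest, it was -0.0076. The sign for Srebf2 thus turned with 1 mouse left out.

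Hmgcs1 (ENSMUSG00000093930, chromosome 13, 120151915 to 120170470, plus strand) encodes the cytosolic HMG-CoA synthase, an early enzyme of the mevalonate route. It was at 27.7, 32.4, 22.5 and 28.9 CPM with water and at 33.5, 34.6, 52.0 and 26.1 CPM with zinc. In the zinc group 3 values were above every water value and that of replicate 4 was not. On the log2 scale the difference was 0.39 (SE 0.208, edgeR adjusted p 0.503), and without zinc replicate 3, the highest library, it was 0.17.

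Idi1 (ENSMUSG00000058258, chromosome 13, 8935537 to 8942487, plus strand) encodes the isomerase that interconverts the isoprenoid building blocks. Its counts were low, at 12, 7, 6 and 9 reads with water and 28, 23, 19 and 14 with zinc. As CPM these were 0.821, 0.417, 0.738 and 0.720 with water and 2.62, 1.65, 1.33 and 1.13 with zinc. The groups did not overlap, although the lowest zinc library had 14 counts and the highest water library 12. Idi1 had a log2 fold change of 1.32 (SE 0.409, unadjusted p 0.00863, edgeR adjusted p 0.485), the highest of the 8, and 1.42 without zinc replicate 3. Among the 48 tested genes of the sterol lists below it was also the highest. The limit of shared words given above holds for these values too.

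Fdps (ENSMUSG00000059743, chromosome 3, 89000888 to 89019213, minus strand) encodes farnesyl diphosphate synthase. It had 2 to 26 counts a library, and 0.547, 1.55, 0.246 and 1.44 CPM with water and 0.843, 0.861, 0.632 and 1.13 CPM with zinc. The water group held both the highest and the lowest level, and the zinc values lay between. The log2 fold change was -0.18 (edgeR adjusted p 0.896), and its SE of 0.523 was the largest of the 8 genes.

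Fdft1 (ENSMUSG00000021273, chromosome 14, 63382189 to 63417027, minus strand) encodes squalene synthase, the first enzyme committed to sterols. It was at 22.1, 20.7, 21.8 and 24.4 CPM with water and 18.6, 21.1, 20.4 and 26.6 CPM with zinc. Over the 8 libraries it varied least among the 8 genes, by 1.43 times between the lowest and the highest, and the water values lay inside the range of the zinc values. Its log2 fold change was -0.04 (SE 0.143, edgeR adjusted p 0.927). Exons of Ctsb, a cathepsin gene on the opposite strand, cover 34.1% of the Fdft1 transcript, and Ctsb was at 135 to 206 CPM. The sources used here do not say whether the counting used strand, so reads of the overlap cannot be assigned with certainty.

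Sqle (ENSMUSG00000022351, chromosome 15, 59186869 to 59203043, plus strand) encodes squalene epoxidase, the second rate-controlling enzyme of the pathway. It was at 12.3, 11.2, 8.98 and 9.60 CPM with water and 18.8, 18.2, 15.2 and 13.5 CPM with zinc. Each zinc library was above each water library, and zinc replicate 3 lay inside the range of its group. The means were 10.5 ± 1.51 and 16.4 ± 2.51 CPM, with a log2 fold change of 0.64 (SE 0.166, unadjusted p 0.00295, edgeR adjusted p 0.485). Without zinc replicate 3 it was 0.68. Washc5, which covers 16.7% of the Sqle transcript on the other strand, was at 16.2 to 25.9 CPM, with a log2 fold change of 0.24 (unadjusted p 0.181 by edgeR), and the strand limit given for Fdft1 holds here too.

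Lss (ENSMUSG00000033105, chromosome 10, 76367298 to 76392976, plus strand) encodes lanosterol synthase, which closes the sterol rings. It was at 8.68, 8.99, 9.85 and 9.99 CPM with water and 9.65, 10.5, 13.7 and 8.79 CPM with zinc. Zinc replicate 3 was the highest and the other 7 libraries lay within 1.21 times of each other. The log2 fold change was 0.19 (SE 0.173, edgeR adjusted p 0.653) and 0.05 without zinc replicate 3.

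Insig1 (ENSMUSG00000045294, chromosome 5, 28276315 to 28283668, plus strand) encodes the sterol-sensing anchor of SCAP and is itself a target of SREBP2. It was at 17.3, 23.2, 24.0 and 27.4 CPM with water and 28.6, 25.8, 47.4 and 33.5 CPM with zinc. Of the zinc libraries 3 were above every water library, and zinc replicate 2 was below Milli-Q water replicate 4. With 8 libraries the log2 fold change was 0.56 (SE 0.212, unadjusted p 0.0236, edgeR adjusted p 0.485). Without zinc replicate 3, in which it was highest, it was 0.36 (unadjusted p 0.0470, edgeR adjusted p 0.613). In all, 3 of the 8 genes (Hmgcs1, Lss and Insig1) had their highest level in zinc replicate 3, where 29.8% of all genes did, and 1 (Srebf2) its lowest, where 30% of all genes did.

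**Figure D1:**
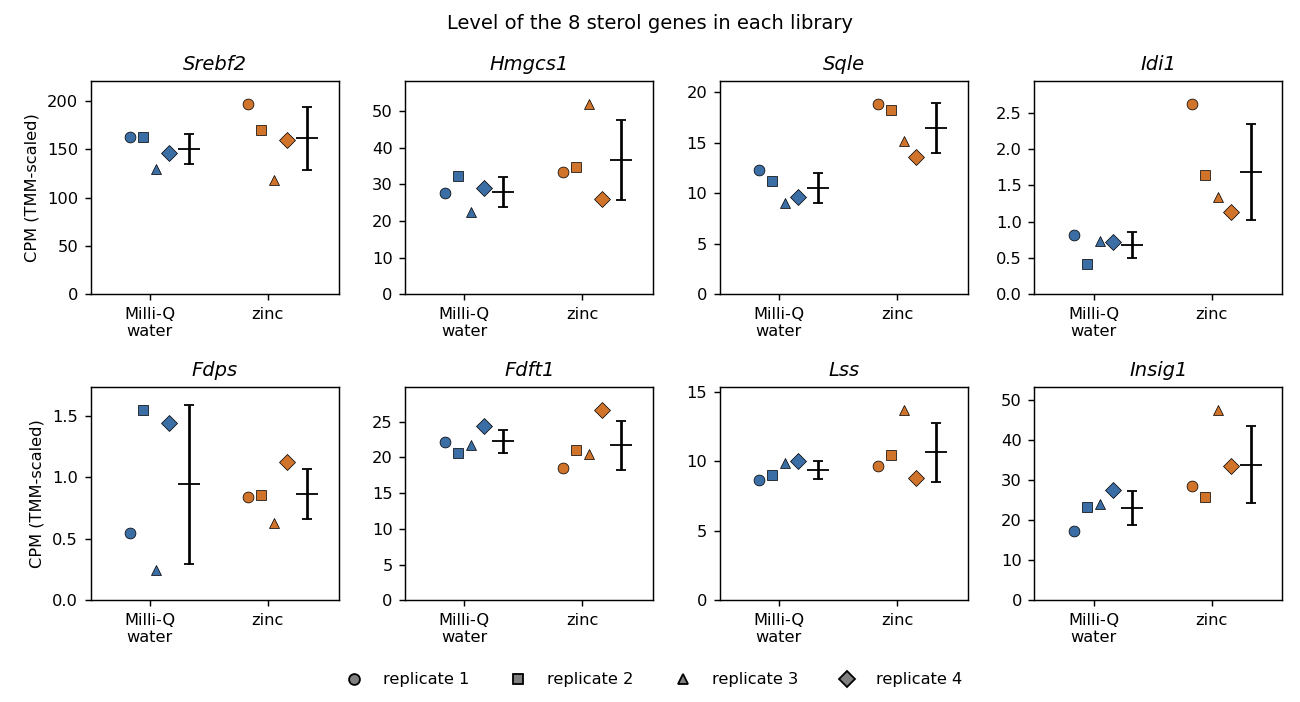
Each panel shows 1 of the 8 genes, with the level in CPM on the y axis (TMM-scaled, starting at 0) and the groups on the x axis. Points are libraries, shaped by replicate number, and bars are the group mean ± SD (n = 4). The zinc points lie above all water points for Sqle and Idi1, and zinc replicate 3 is the highest point for Hmgcs1, Lss and Insig1.

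The rest of the pathway was read from fixed lists. Of 9 genes from acetyl-CoA to squalene, all tested, 4 had a higher and 5 a lower fold change with zinc, with a median of -0.04, and 0 passed in either direction. Zinc replicate 3 held the highest level of Mvk (mevalonate kinase, 6.88 CPM against 1.35 to 3.84 elsewhere, log2 fold change 0.88) and the lowest of Mvd (mevalonate diphosphate decarboxylase, 2.95 CPM against 7.03 to 16.7, log2 fold change -0.22). Without that library the log2 fold change of Mvk was 0.32 and that of Mvd 0.10. Enzymes of 1 route, Mvk and Mvd, were thus at opposite extremes in that library.

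Of the 12 genes from squalene to cholesterol, 9 had a higher and 3 a lower fold change, with a median of 0.16 and 0 past the threshold. Apart from Sqle, the genes of this list had log2 fold changes between -0.38 and 0.43. Cyp51 (lanosterol demethylase) had a log2 fold change of 0.14, Msmo1 (methylsterol monooxygenase) 0.02 and Dhcr7 (the last step of the Kandutsch-Russell branch) 0.28. Sc5d, the sterol desaturase and the late gene with the smallest p among those lower, was at 60.3 to 67.5 CPM with water and 52.1, 56.3, 27.4 and 62.6 CPM with zinc (log2 fold change -0.38, SE 0.224, edgeR adjusted p 0.522). The groups overlapped for it, and zinc replicate 3 was again the extreme.

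Of the 10 genes for processing and sensing of SREBP2, 6 had a higher and 4 a lower fold change, with a median of 0.04. Scap, the escort of SREBP2, had a log2 fold change of 0.12 (edgeR adjusted p 0.791). Insig2, the second INSIG gene, which unlike Insig1 is not driven by SREBP2, had a fold change of the other sign. It was at 22.1, 22.1, 29.4 and 24.3 CPM with water and 19.9, 19.6, 11.9 and 19.6 CPM with zinc, so that each zinc library was below each water library. Insig2 had a log2 fold change of -0.46 (SE 0.187, unadjusted p 0.0315, edgeR adjusted p 0.485), and -0.30 without zinc replicate 3. Per kilobase, Insig1 was at 0.798, 1.07, 0.831 and 1.15 times the level of Insig2 with water and at 1.46, 1.34, 4.07 and 1.74 times with zinc. These ratios do not overlap between the groups, but they were formed after the values had been seen and were not tested.

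Of 9 genes for sterol uptake and transport, 8 were tested, 5 with a higher and 3 with a lower fold change and a median of 0.42. Stard4, a sterol carrier driven by SREBP2, was at 13.0 to 14.5 CPM with water and 23.7, 21.3, 34.7 and 12.9 CPM with zinc (log2 fold change 0.77, SE 0.249, unadjusted p 0.0105, edgeR adjusted p 0.485). For Stard4 zinc replicate 3 was the highest and zinc replicate 4 lay below the water range. Without zinc replicate 3 its log2 fold change was 0.51 (unadjusted edgeR p 0.0170). Mylip, an E3 ligase that acts in sterol uptake and the gene of this list with the smallest p among those lower, had a log2 fold change of -0.21 (0.05 without zinc replicate 3). Lrp1, the gene below the filter, had 3 to 10 counts with water and 51, 30, 107 and 8 with zinc. It was the 1 gene of the sterol lists that DESeq2 called. The filter kept it out of the edgeR test, and with no filter edgeR called 0 genes of these lists.

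Over the 49 genes of these lists and of a list for sterol efflux and storage, 48 were tested, 27 with a higher and 21 with a lower fold change, and 0 passed. The median was 0.07. At an unadjusted p under 0.05 by edgeR there were 5 higher and 1 lower of the 48, against 6.42% and 3.78% of all genes tested. Without zinc replicate 3 there were 4 and 1 of the 48, against 467 and 400 of all 10755 genes tested in that fit. Among the higher genes were Sqle, Idi1, Insig1 and Stard4, and the lower 1 was Insig2.

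**Figure D2:**
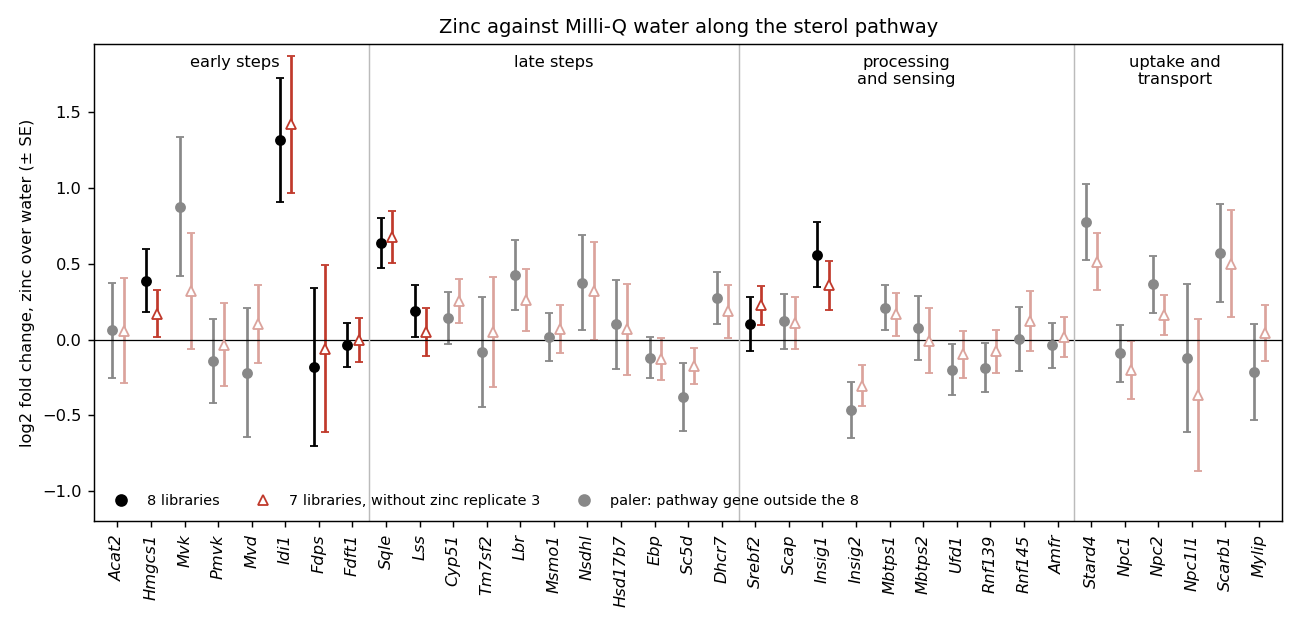
The y axis is the log2 fold change, zinc over Milli-Q water (edgeR, ± SE formed from its F), and the x axis lists tested genes of the pathway by step. Filled circles are the fit of 8 libraries and open triangles the fit without zinc replicate 3, with the 8 genes in strong and other genes in paler color. Idi1 is highest at 1.32 and Insig2 lowest at -0.46 in the fit of 8 libraries.

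**Figure D3:**
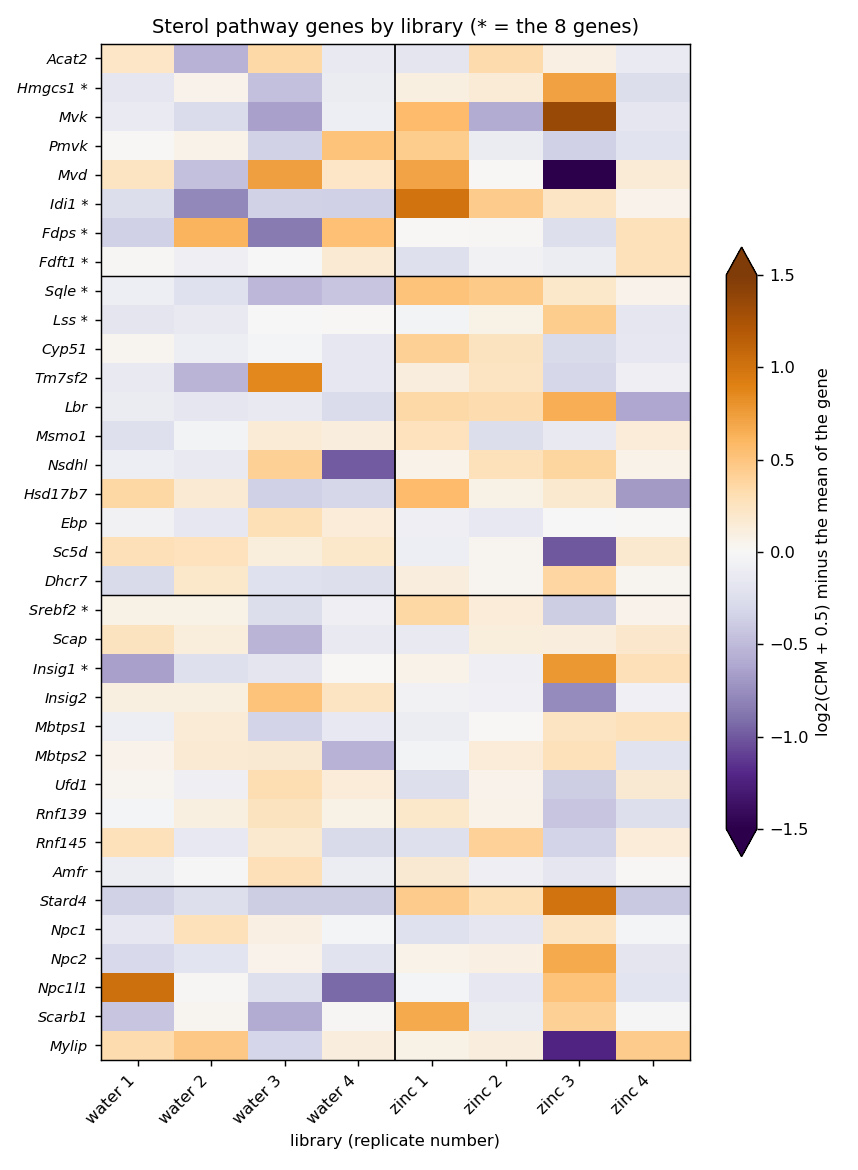
Rows are tested genes of the pathway in the same order, columns are the 8 libraries, and color is log2(CPM + 0.5) minus the mean of the gene, limited to 1.5 in either direction. The column of zinc replicate 3 holds many of the strongest colors of both signs, among them Mvk and Stard4 (high) and Mvd and Mylip (low), while Sqle and Idi1 are above their means in all 4 zinc columns.

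The last question was whether the 8 genes varied together from mouse to mouse. Correlations are of log2(CPM + 0.5) over 8 libraries and are descriptions, since the points share the group difference, library depth and the libraries that stood apart. The median Pearson r of the 28 pairs was 0.20 (Spearman 0.18), with 18 pairs above 0 and a range of -0.63 to 0.87. The median over all pairs of tested genes was -0.0027. After the group means were taken out, the median r of the 28 pairs was -0.12, with 13 pairs above 0, and 0.08 with 15 pairs above 0 when zinc replicate 3 was also left out.

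The pair with the highest r was Sqle and Idi1, the genes whose groups did not overlap (r = 0.87, Spearman 0.90), and it was 0.86 without zinc replicate 3. Their deviations from the group means had an r of 0.52. Hmgcs1, Lss and Insig1 had r of 0.80 (Hmgcs1 with Lss), 0.76 (Lss with Insig1) and 0.65 (Hmgcs1 with Insig1). Zinc replicate 3 held the highest level of each, and without it these r were 0.25, 0.26 and 0.07. Srebf2 was lowest in that library and had r of -0.21 with Hmgcs1 and -0.63 with Lss over 8 libraries. Without it, r of Srebf2 was 0.80 with Hmgcs1, 0.88 with Sqle and 0.70 with Idi1. Over those 7 libraries the median of the 28 pairs was 0.26 with 20 pairs above 0, against a median of -0.0009 for all genes. Fdft1 had a negative r with 5 of the other 7 genes both with and without zinc replicate 3, between -0.49 and -0.21 over the 8 libraries.

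**Figure D4:**
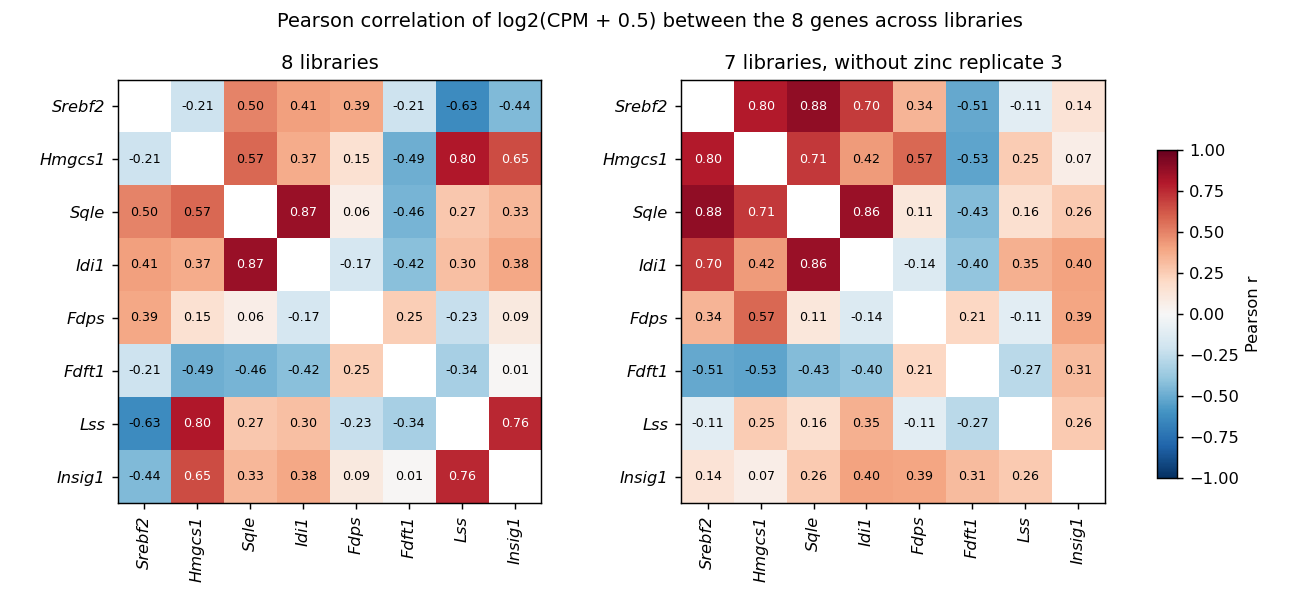
Each cell gives the Pearson r of log2(CPM + 0.5) for a pair of the 8 genes, over 8 libraries on the left and over 7 libraries without zinc replicate 3 on the right, with color from -1 (blue) to 1 (red). Sqle with Idi1 is at 0.87 and 0.86, Srebf2 with Hmgcs1 goes from -0.21 to 0.80, and Hmgcs1 with Lss goes from 0.80 to 0.25.

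Averaged over the 8 genes, each scaled to mean 0 and SD 1, the water libraries 1 to 4 were at -0.49, -0.24, -0.83 and -0.03 and the zinc libraries at 0.43, 0.37, 0.54 and 0.25. The groups did not overlap on this average, which is a description of chosen genes and was not tested. Milli-Q water replicates 3 and 4, at the lowest and the highest water value, both showed levels that fell with transcript length (Spearman rho across genes -0.33 and -0.34, against -0.00013 to 0.25 in the other libraries). Among the remaining genes of the sterol and fatty acid lists, Scarb1, the HDL receptor (r = 0.83), Stard4 (0.73), Acly, the ATP citrate lyase that supplies acetyl-CoA (0.73), and Dhcr7 (0.69) were most like this average, and Insig2 (-0.79) least. Over all tested genes the 10 most alike were Smim8 (r = 0.98), Trmt2b (0.97), Panx2 (0.96), Cyp4f13 (0.96), 5830417I10Rik (0.96), Ankrd40 (0.95), Niban2 (0.95), Kansl2 (0.94), Snx27 (0.94) and Phka2 (0.94), none of them a gene of these lists. Over the 7 libraries without zinc replicate 3 the 10 were Smim8 (0.97), Tmem109 (0.97), Fbxw5 (0.96), Mlec (0.96), Panx2 (0.95), Dnajc1 (0.95), Klhl25 (0.94), Atg16l2 (0.94), Trmt2b (0.94) and Armc9 (0.94). Smim8, Trmt2b and Panx2 were in both. These are the extremes of all tested genes over few points, so their r has no test.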

How the data were processed

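The authors deposited raw read counts per Ensembl gene for 8 libraries of polyadenylated RNA, made with a stranded kit. The submitters' processing notes name FastQC 0.12.0, STAR 2.7.10a, DESeq2 and the mm39 build. The counter, its annotation, its strand setting and its treatment of reads with several matches are not stated in the sources used here. Samples were grouped by their labels and none was left out. The labels give no batch, and each library is from 1 mouse.

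Of 55414 identifiers, 54749 matched GENCODE M39 (GRCm39), which gave symbols, positions and lengths, and 665 did not. Zinc was compared with water by the edgeR 4.0.16 quasi-likelihood F-test (R 4.3.3) with TMM factors and the default filter, which kept 10707 genes holding 99.9% of counts. Adjustment over those genes was by Benjamini and Hochberg (0.05 as threshold). The SE of a log2 fold change is its absolute value divided by the square root of F, since this test gives no SE itself. The smallest adjusted p was 0.485 and the biological coefficient of variation 0.269. Floors cover counting error only. Alternatives were DESeq2 1.42.0, limma 3.58.1 voom with sample weights, DESeq2 and upper-quartile factors, Defa genes removed, other filters, the replicate block, a length correction, and libraries left out. The steps were tested on simulated counts.

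The 8 genes, the lists, tests and naming rule were chosen with earlier results of these data known. By the rule, the text names the 8 genes, 11 set pathway genes, the gene of smallest p in each direction in each pathway list, and the 10 genes most like the average. Ctsb, Washc5, Lrp1, Lyz2, single goblet cell markers, Scarb1, Acly and Fads1 were chosen after their values were seen. Replicates with the same number did not vary together across genes (correlations of deviations -0.015 to 0.030). The labels do not say whether the numbers pair mice. Zinc was therefore compared with water without pairing, and the replicate block was an alternative. Some listed genes count in their lists but are not reported here by name, in the figures or among the genes searched for single libraries.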

Additional observations from a re-analysis of the deposited data

Results flagged for a closer look

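In each group of 4, each gene named by rule was searched for a library that lies apart, with the 95% limit of Dixon's test on the distance to its neighbour relative to the spread of the group. This was done in 50 groups and 6 had such a library, where chance gives about 2.5, and none was of the 8 genes. Insig2 was at 11.9 CPM in zinc replicate 3, with 19.6 CPM as the nearest. Dhcr7 was at 11.9 CPM in Milli-Q water replicate 2, with 8.74 CPM as the nearest. Abca1, the sterol efflux pump, was at 6.37 CPM in zinc replicate 4, with 2.25 CPM as the nearest. The remaining 3 were checks of the labels. Nfkbia, an early NF-kB target, was at 28.6 CPM in zinc replicate 3 against 434 CPM or more in the other zinc libraries. Cxcl1, a chemokine induced by TNF, was at 7.14 CPM in Milli-Q water replicate 3, with 4.65 CPM as the nearest. Mt2, a metallothionein, was at 22.9 CPM in Milli-Q water replicate 3, with 7.09 CPM as the nearest.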

How the results depend on the processing

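None of the 8 genes passed under any alternative run. Over all genes 0 passed, except by DESeq2, with 4, of which 1 (Lrp1) is in the sterol lists. Of 143 values of single members under alternatives, 133 kept their direction and 10 turned. For Srebf2 these were -0.00757 without zinc replicate 1 (0.10 with all libraries, up to 0.227 with another one left out) and -0.0219 without Milli-Q water replicates 3 and 4. For Fdps they were 0.0166 by limma-voom, 0.000431 with the replicate block, 0.165 without Milli-Q water replicate 2 and 0.0637 without replicate 4, with -0.448 as the lowest with 1 library left out. For Fdft1 they were 0.00608 with upper-quartile factors, 0.0123 without Milli-Q water replicate 4, 0.0301 without zinc replicate 1 and 0.0113 without Milli-Q water replicates 3 and 4, with -0.155 as the lowest with 1 library left out. The cause was not tested. Sqle stayed between 0.47 and 0.72, Idi1 between 1.03 and 1.46 and Insig1 between 0.36 and 0.73. The count of members at an unadjusted p under 0.05 by edgeR was 3, and 2 to 4 with 1 library left out: Insig1 was lost without Milli-Q water replicate 1 and Hmgcs1 added without zinc replicate 4. The count over all genes moved too. It was 1092 of 10707 with all libraries, 851 of 10877 without Milli-Q water replicate 1 and 1960 of 10924 without zinc replicate 4. Members with a higher fold change numbered 6 to 8, and those without overlap 2 to 3, with 1 library left out. Smaller groups overlap less readily, and the share of all genes without overlap was not counted in those runs. The median r of the 28 pairs was 0.0665 (without Milli-Q water replicate 3) to 0.271 (without Milli-Q water replicate 4), 0.103 without both and -0.12 from deviations. With the union of exons, 4 of the 8 genes kept their rank. In the paired fit, with the replicate block, 0 genes passed and 802 had an unadjusted p under 0.05, against 1092 by edgeR without it. It changed no other call, and 3 members had such a p. Idi1 and Fdps rest on the fewest reads, 118 and 98 counts over all libraries.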

Other observations

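Genes outside sterol synthesis that share its regulators or answer to sterols gave the following values. Of 11 genes of fatty acid synthesis under SREBP1, 10 were tested, 7 with a higher and 3 with a lower log2 fold change, with a median of 0.44 and 0 past the adjusted threshold of edgeR. By an unadjusted edgeR p under 0.05, 2 of the 10 were higher, against 6.42% of all genes, and 0 were lower, against 3.78%. Scd2, a stearoyl-CoA desaturase, was at 2.94, 2.08, 0.738 and 0.880 CPM with water and 5.62, 5.02, 5.89 and 1.13 CPM with zinc (log2 fold change 1.36, SE 0.545, edgeR adjusted p 0.485). Fads1, a fatty acid desaturase, was at 0.480 to 2.83 CPM with water and 6.47, 4.52, 6.32 and 1.13 CPM with zinc (1.34, SE 0.576, edgeR adjusted p 0.485). In both genes 3 zinc libraries were above all water libraries and zinc replicate 4 was inside their range. Fasn, the fatty acid synthase, had a log2 fold change of 0.40 (edgeR adjusted p 0.487), and Me1, the malic enzyme and the gene of this list with the smallest p among those lower, -0.98 at 1.13 CPM or less in every library.

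Of the 9 genes bound to LXR, sterol efflux or storage, 3 had a higher and 6 a lower fold change, with a median of -0.08 and 0 past the threshold. Srebf1, the gene of SREBP1, had a log2 fold change of -0.11, Abca1 -0.27 and Abcg5, a sterol exporter, 0.54. Soat2, which esterifies cholesterol in the intestine, was at 5.90 to 8.08 CPM with water and 3.94, 4.30, 4.56 and 6.21 CPM with zinc (-0.47, SE 0.215, edgeR adjusted p 0.485). The metallothioneins and the zinc exporter of the zinc-induced list had a median of 2.47 over 3 genes. Their sum was 39.9 CPM in zinc replicate 3, 49.5 to 431 CPM in the rest of its group, and 40.0 to 91.6 CPM with water. The 49.5 CPM was that of zinc replicate 4, in which each of the 3 genes lay inside its water range. Each was above all water libraries in zinc replicates 1 and 2, and in zinc replicate 3 only the exporter was. The rise was thus not shared by all zinc libraries, and the part of this in the values of the 8 genes was not tested. Goblet cell markers summed to 10409 to 15088 CPM with water and 10672 to 15397 CPM with zinc, and 8 enteroendocrine and tuft markers, 3 of them tested, to 24.8 to 27.7 and 16.8 to 32.8 CPM. Within the goblet cell list, Zg16 had a log2 fold change of 1.91, Fcgbp 1.81 and Clca1 1.80, each highest in zinc replicate 3, and Spdef -0.45 (unadjusted edgeR p 0.0180, 0.0285, 0.0248 and 0.0356, adjusted p 0.485 for each). The rest of the list had Muc2 at 0.84, Tff3 at -0.13, Agr2 at -0.20 and Spink4 at -0.41. Without zinc replicate 3, Zg16 was at 1.04, Fcgbp 0.65, Clca1 1.25 and Muc2 1.10. In that fit Spdef was at -0.42, Tff3 -0.46, Agr2 -0.28 and Spink4 -0.39.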
